A study of Caenorhabditis elegans with 3 samples.

Results

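The cpr genes of Caenorhabditis elegans encode cathepsin B-like cysteine proteases, and 8 of them are described here by the peaks of the transcription factor PQM-1 in and beside them: cpr-1, cpr-2, cpr-3, cpr-4, cpr-5, cpr-6, cpr-8 and cpr-9. They are 8 of the 19973 protein-coding genes of the nuclear chromosomes in the annotation. The genes are a fixed list of names, but the list was chosen on the basis of measured values, since PQM-1 peaks at several of them were already known from the same files. Counts and ranks of peaks over these genes are therefore a description, and no test was made on them. For each gene, every peak was taken whose summit lay in the gene body or within 2000 bp upstream of the annotated 5' end, a stretch called the window below.

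Cathepsin B-like enzymes belong to the papain family of cysteine proteases. They are made as inactive precursors, are activated by removal of a propeptide, and cut proteins inside lysosomes or outside the cell. In C. elegans cpr-1 was described as a gut-specific protease gene, and intestinal cathepsins are thought to take part in the digestion of bacteria. PQM-1 is a zinc-finger protein associated with the word TGATAAG, the DAF-16-associated element, which is named after the insulin pathway factor DAF-16. That word also contains the site of the GATA factors, which switch on many intestinal genes, so finding it does not say which protein is bound.

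The data were peak lists from chromatin immunoprecipitation and sequencing (ChIP-seq) of whole L1 larvae of mixed sex. All 3 biological replicates came from strain OP201, which is mutant for unc-119 (allele tm4063 on III) and carries the wgIs201 transgene for PQM-1 with GFP and FLAG at its C terminus. There was 1 group, with no untagged strain and no pqm-1 mutant among the samples, and the labels do not say which promoter drives the transgene or whether the native pqm-1 gene is intact. Larvae were taken whole, so no peak can be assigned to the intestine or to any other tissue. Each replicate had a list of 30000 peaks, as did the pooled alignments of all 3. A further list, thresholded on the irreproducible discovery rate (IDR), held 682 peaks, and these were the top 682 of the pooled list by signal. Rank 1 is the peak of highest signal in a list, and the 682 highest peaks of a replicate are called its top list. Chromatin was sheared by sonication and precipitated with an antibody that the labels name only by its target. Read depth is unknown, because the files give no counts.

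Of the 8 genes, 7 lay on chromosome V and cpr-6 lay on X. On the plus strand of V were cpr-4 (6614674 to 6615851), cpr-1 (11975551 to 11976756), cpr-9 (12003053 to 12004584) and cpr-8 (1134602 to 1139182). On its minus strand were cpr-5 (1132598 to 1134036), cpr-3 (15296834 to 15298700) and cpr-2 (16532936 to 16534100). cpr-6 ran from 6607207 to 6609045 on the plus strand of X. The stretch between cpr-5 and cpr-8, which are transcribed away from each other, measured 565 bp, so these genes share peaks. Between cpr-1 and cpr-9 there were 26296 bp, 8 protein-coding genes and 2 IDR summits, including that of the cpr-9 peak itself.

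The sequences under the upstream peaks show how the words for GATA factors are arranged at each gene. The stretches, from the RefSeq assembly of build ce11, are parts of peaks that end before the annotated 5' end, and each is written 5' to 3' along the gene's strand, with GATA words in capitals. A GATA word here is AGATAA or AGATAG, or TGATAA or TGATAG, on either strand, and TGATAAG contains TGATAA. The IDR peaks of cpr-4 (chrV:6614446-6614673, plus strand), cpr-3 (chrV:15298703-15298992, minus strand) and cpr-1 (chrV:11975307-11975550, plus strand) lie next to the gene and hold TGATAAG more than once.
cpr-4: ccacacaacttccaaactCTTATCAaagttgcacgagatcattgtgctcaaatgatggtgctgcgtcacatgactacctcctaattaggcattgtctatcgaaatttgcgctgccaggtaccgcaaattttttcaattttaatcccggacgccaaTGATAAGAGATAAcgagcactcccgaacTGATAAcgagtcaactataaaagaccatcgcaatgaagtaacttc
cpr-3: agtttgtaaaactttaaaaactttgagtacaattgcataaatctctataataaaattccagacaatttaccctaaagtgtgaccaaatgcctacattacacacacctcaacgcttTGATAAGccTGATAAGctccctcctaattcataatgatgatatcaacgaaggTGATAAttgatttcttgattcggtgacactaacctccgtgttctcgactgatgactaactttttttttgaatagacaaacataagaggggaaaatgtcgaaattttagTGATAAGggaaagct
cpr-1: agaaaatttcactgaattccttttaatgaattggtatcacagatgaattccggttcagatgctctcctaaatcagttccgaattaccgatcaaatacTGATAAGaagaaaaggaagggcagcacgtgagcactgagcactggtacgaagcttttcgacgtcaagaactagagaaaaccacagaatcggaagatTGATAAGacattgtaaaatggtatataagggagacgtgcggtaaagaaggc

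In the cpr-9 IDR peak (chrV:12002174-12002463, plus strand) TGATAAG stands once, beyond a transfer RNA gene that fills the start of the stretch. At cpr-6 the IDR peak is inside an intron, and the 101 bases centred on its summit (chrX:6607687-6607787, plus strand) hold the word in reverse.
cpr-9: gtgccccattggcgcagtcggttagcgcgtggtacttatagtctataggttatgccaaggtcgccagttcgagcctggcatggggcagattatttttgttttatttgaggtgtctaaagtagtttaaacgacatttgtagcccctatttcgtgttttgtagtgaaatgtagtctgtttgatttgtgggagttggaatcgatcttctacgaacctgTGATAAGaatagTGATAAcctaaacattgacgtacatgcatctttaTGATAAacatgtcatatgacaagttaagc
cpr-6: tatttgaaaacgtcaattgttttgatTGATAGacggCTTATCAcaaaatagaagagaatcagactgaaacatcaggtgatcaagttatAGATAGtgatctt

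The weaker peak upstream of cpr-6 (chrX:6607029-6607206, plus strand) has no TGATAAG and is shown for contrast. The part of the pooled peak that lies between cpr-5 and cpr-8 (chrV:1134037-1134281, written along the cpr-5 strand) has none either. That peak starts at 1133992, however, and holds a TGATAAG inside cpr-5, outside the printed bases.
cpr-6: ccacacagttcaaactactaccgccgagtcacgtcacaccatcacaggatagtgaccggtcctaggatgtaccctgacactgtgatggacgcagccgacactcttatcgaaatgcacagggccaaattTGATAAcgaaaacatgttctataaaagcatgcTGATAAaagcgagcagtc
cpr-5: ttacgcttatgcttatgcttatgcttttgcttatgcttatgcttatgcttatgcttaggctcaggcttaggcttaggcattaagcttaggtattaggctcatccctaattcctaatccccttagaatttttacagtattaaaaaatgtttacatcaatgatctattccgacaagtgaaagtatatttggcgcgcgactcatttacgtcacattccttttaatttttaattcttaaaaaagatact

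An IDR summit lay in the window of 5 of the 8 genes (62.5%), where 690 of all 19973 protein-coding genes (3.45%) had one. The peak ranked 41 at cpr-4, 70 at cpr-3, 99 at cpr-1, 199 at cpr-9 and 669 at cpr-6. The list was chosen with these peaks known, so nothing is read from the difference. The other 3 genes, cpr-2, cpr-5 and cpr-8, had summits of lower rank in the pooled list, and 75.3% of all protein-coding genes had a pooled summit somewhere in the window. Where a gene had several peaks, its best rank was used. Over the 8 genes the median best rank in the pooled list was 434, against 9435 over the 15046 protein-coding genes with a pooled summit.

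**Figure D1:**
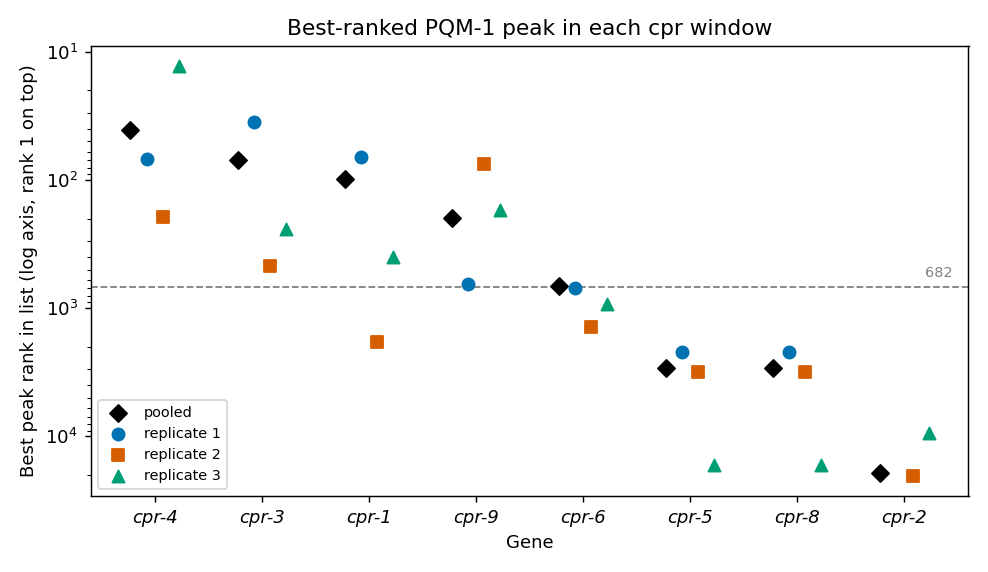
Best peak rank in the window of each cpr gene (log axis, rank 1 on top) in the pooled list and in replicates 1, 2 and 3, with the dashed line at rank 682, where the IDR list and the top lists end. The points of cpr-4, cpr-3 and cpr-9 all lie above the line, those of cpr-1 lie above it except replicate 2 at 1823, and cpr-5, cpr-8 and cpr-2 lie below it in every list, with no point for cpr-2 in replicate 1.

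**Figure D2:**
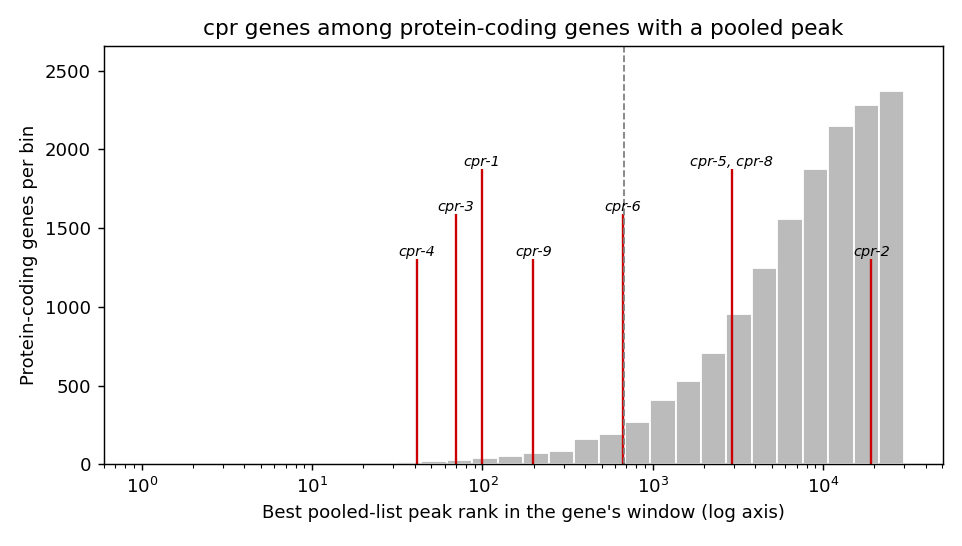
Number of protein-coding genes by the best pooled-list rank in their window (log axis, 15046 genes with a summit), with the cpr genes as red lines and rank 682 dashed. The lines run from 41 at cpr-4 to 669 at cpr-6 left of the dashed line, and cpr-5 and cpr-8 share a line at 2908; line heights differ only to separate the names.

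cpr-4 had the best-ranked peak of the members in the pooled list and in replicate 3, while cpr-3 led in replicate 1 and cpr-9 in replicate 2. Its product is a secreted protease in C. elegans. The IDR peak (V, 6614446 to 6614735) had a signal of 74.7 as the authors' caller gave it, and 35 protein-coding genes (0.175%) had a better-ranked pooled peak in their window. The matching peak, covering at least 50% of it, ranked 69 in replicate 1 and 13 in replicate 3, and lower in replicate 2 but still inside its top list, a mean of 92.7 ± 93.8 (SD, n = 3). Replicate 3 placed it highest.

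The position of the cpr-4 summit differed more between replicates than that of cpr-3. It lay 83 bp upstream of the 5' end in the pooled list, and 39, 44 and 167 bp upstream in replicates 1, 2 and 3, a range of 128 bp. Copies of TGATAAG were centred 70 and 207 bp upstream, 137 bp apart. The summits of replicates 1 and 2 were 31 and 26 bp from the nearest copy, on the side of the gene, and that of replicate 3 lay between the copies, 40 bp from the distal one. The commonest peak width was 240 bp in replicate 3, 330 bp in replicate 1 and 310 bp in replicate 2. No other coding gene had this summit in its window. The other cpr-4 peaks were far weaker, the best of them at rank 11470 in the pooled list, in the 3' UTR, and at 7253 in replicate 2, upstream.

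The cpr-3 peak was the most exact in position. The IDR peak (V, 15298703 to 15298992) ranked 70, with a signal of 66.2, and its summit lay 148 bp upstream of the 5' end. In the replicates it ranked 35, 465 and 239, a mean of 246.3 ± 215.1 (SD, n = 3). The summits of the 3 replicates lay 148, 153 and 148 bp upstream, a range of 5 bp. Copies of TGATAAG were centred 174 and 165 bp upstream, 9 bp apart, and another stood 14 bp upstream, as the sequence above shows. Of all protein-coding genes, 19 (0.0951%) had 3 or more copies in the 300 bp upstream of the 5' end. The window of cpr-3 held no summit of IDR rank other than this one, and the next pooled peak, in an intron, ranked 10550.

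The cpr-1 peak varied more between replicates on the log10 rank scale than the other 4 IDR peaks at members, though not in rank itself, where cpr-6 varied most. The peak (V, 11975307 to 11975596) had a signal of 59.9 and ranked 66, 1823 and 397 in replicates 1, 2 and 3, a mean of 762 ± 933.6 (SD, n = 3). Replicate 2 thus left it outside its top list. The SD of its log10 rank was 0.721, where the median over the 516 IDR peaks matched in all 3 replicates was 0.579 and the value at cpr-4 was 0.594. The summit lay 99 bp upstream of the gene in the pooled list, and 124, 84 and 194 bp upstream in the replicates. TGATAAG was centred 48 and 144 bp upstream, and the replicate summits were 20, 36 and 50 bp from the nearer copy. It also lay inside C52E4.17, a short non-coding gene on the other strand (V, 11975337 to 11975480), so the peak is not resolved between these genes. The cpr-1 stretch holds CACGTG, the E-box, as well, which stood in the 300 bp upstream of 5.74% of protein-coding genes.

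Replicate 3 had a further cpr-1 peak of nearly the same rank inside the gene. It ranked 430, with the summit in a coding exon 659 bp downstream of the 5' end, beside 397 for the upstream peak. Replicates 1 and 2 had no summit in the cpr-1 gene body, and the pooled list had one at rank 7669. No GATA word lay within 500 bp of either summit in the gene body.

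The cpr-9 peak stood farther from its gene than the other upstream peaks. The IDR peak (V, 12002174 to 12002463) had a signal of 49.8 and ranked 652, 75 and 171 in replicates 1, 2 and 3, a mean of 299.3 ± 309.2 (SD, n = 3). All 3 values are within the top lists, the weakest of them in replicate 1. Its summit lay 734 bp upstream of cpr-9, and 705, 712 and 674 bp upstream in the replicates. The same summit lay 522 bp upstream of gcy-33, a soluble guanylyl cyclase gene transcribed the other way. It lay 59 bp beyond a tRNA gene (V, 12002176 to 12002260), which the peak covered whole and which RefSeq lists as a tRNA-Ile gene, and 39 bp upstream of the non-coding gene F57F5.7. Of the 682 IDR peaks, 5 (0.733%) overlapped a tRNA gene. Which of these genes the peak belongs to was not tested.

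The copy of TGATAAG in that peak was centred 661 bp upstream of cpr-9, 73 bp from the pooled summit and on the side away from the tRNA gene. The replicate summits were 44, 51 and 13 bp from it, all nearer than the pooled one. Close to the cpr-9 5' end there was another, weaker peak, 17 bp upstream in the pooled list at rank 1708 and 4 bp from a further TGATAAG. It ranked 795 in replicate 1, 19 bp upstream. In replicate 2 the nearest summit to the 5' end ranked 10876, in the 5' UTR, and in replicate 3 it ranked 13273, 247 bp upstream. The replicates thus differed in both the place and the rank of the summit nearest the 5' end.

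At cpr-6, the only member on X, the peaks had the same order in replicates 1 and 2 and another in replicate 3. The product of cpr-6 is a cathepsin B-like protease. The IDR peak (X, 6607592 to 6607881) had its summit in an intron, 530 bp downstream of the 5' end, and a signal of 34.8, just inside the IDR list, whose lowest signal was 34.6. A pooled peak 33 bp upstream of the 5' end ranked 760, just outside, with a signal of 33.4. A pooled peak in a coding exon 1296 bp downstream ranked 1127 and was also in the window of C25B8.8. The best peak was the upstream one in replicates 1 and 2, at ranks 701 and 1396, and the exonic one in replicate 3, at rank 932. The intronic peak ranked 6295, 1843 and 11675 in the replicates, a mean of 6604 ± 4923 (SD, n = 3), and so was in no top list. Of the 682 IDR peaks, 51 (7.48%) were in none.

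The intronic cpr-6 summit was 11 bp from TGATAAG in the pooled list, and 9, 127 and 3 bp from it in replicates 1, 2 and 3. The peak upstream of cpr-6 had no TGATAAG within 500 bp, though copies of TGATAA stood there. Membership of the IDR list at cpr-6 thus rests on a pooled signal near the limit, and the 5' end had the better rank in replicates 1 and 2. In replicate 3 the upstream summit, 173 bp from the 5' end, ranked 18592, below the intronic one at 11675.

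cpr-5 and cpr-8, the adjacent pair, had peaks below the IDR list. In the 565 bp between them the pooled list had 1 summit, at rank 7979. Replicate 1 had 1 at rank 2204, replicate 2 had 1 at rank 3147, and replicate 3 had none. The best pooled peak in both windows ranked 2908 and lay in a coding exon of cpr-8, 313 bp downstream of its 5' end. In replicate 3 the best summit ranked 16566, in a coding exon of cpr-5. The replicates did not place the strongest peak of the pair at the same site.

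The sequence printed for cpr-5 and cpr-8 is only part of the 565 bp between them and leaves out the part of the pooled peak inside cpr-5. Unlike the other printed stretches, these 245 bases have no GATA word. They hold a run of short repeats, with 7 copies of GCTTAT and 4 of GCTTAG. Within the 300 bp upstream of cpr-5 stood 1 TGTTTAC, the DAF-16 binding element, a word in the same stretch of 5.01% of protein-coding genes. TGATAAG was centred 11 bp upstream of the cpr-8 5' end and 15 bp downstream of that of cpr-5. The copy in cpr-5 lies inside the pooled peak. The nearest summit of any list to either copy was that of replicate 1, at 48 bp. W07B8.4, a further gene of the cysteine cathepsin list, lies beside cpr-5 and had its window over the summits in the cpr-5 gene body. No IDR summit lay in its window.

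cpr-2 had the lowest-ranked best peak of the members in the pooled list and in replicate 2, though in replicate 3 it ranked above cpr-5 and cpr-8. The pooled list held 1 summit in its window, in a coding exon 417 bp downstream of the 5' end, at rank 19181, and 11984 protein-coding genes (60.0%) had a better one. Replicate 1 had no summit in the window, replicate 2 had 1 at rank 20277, upstream, and replicate 3 had 2, the better at rank 9468 in the same exon. Each of these summits was also in the window of Y32B12B.8. TGATAAG was absent from the whole cpr-2 window, the only one of the 8 without it. A relaxed list of 30000 peaks holds background as well, so these ranks do not show binding.

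**Figure D3:**
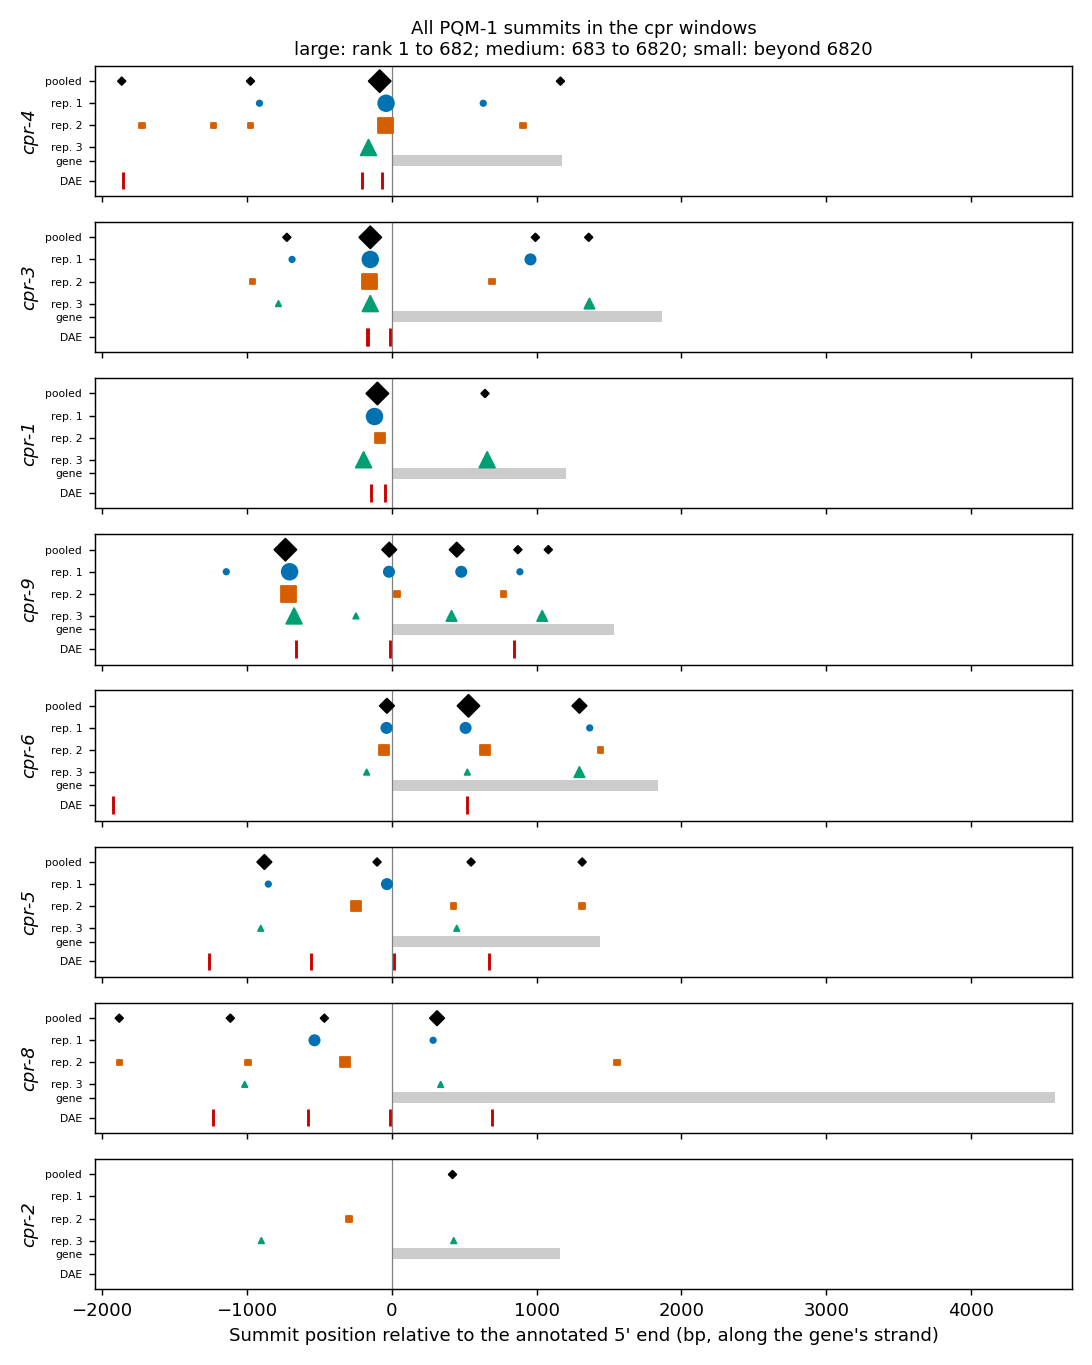
All summits in the window of each cpr gene, by distance from the annotated 5' end along the gene's strand (bp), in the pooled list and replicates 1, 2 and 3 (rep.), with the gene body in grey and each TGATAAG (DAE) as a red tick. Large markers are ranks up to 682, small ones ranks beyond 6820. The large markers of cpr-4, cpr-3 and cpr-1 gather at most 194 bp upstream, except the cpr-1 exon peak of replicate 3, while those of cpr-9 lie 674 to 734 bp upstream.

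Over the 8 genes, peaks in the windows numbered 23 in the pooled list. Of these, 4 were shared by cpr-5 and cpr-8 and are counted once here. Replicates 1, 2 and 3 had 17, 20 and 17. A summit in the window was found for 7 of 8 genes in replicate 1, 8 in replicate 2 and 8 in replicate 3, where 74%, 74.2% and 74.5% of all protein-coding genes had one. In the top lists alone, 4, 3 and 4 members had a summit in replicates 1, 2 and 3, against 3.53%, 3.72% and 3.73% of genes. In all 3 top lists were cpr-4, cpr-3 and cpr-9, that is 3 of 8 against 0.566% of genes. These shares describe a list chosen with the ranks known.

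Replicate 2 ranked the upstream peaks of cpr-4, cpr-3 and cpr-1 lowest of the 3 replicates, and that of cpr-9 highest. Replicate 1 showed the opposite for cpr-3, cpr-1 and cpr-9, and at cpr-4 the best rank was in replicate 3. The order of the members thus changed with the replicate. It was cpr-3, cpr-1, cpr-4, cpr-9 in replicate 1. In replicate 2 it was cpr-9, cpr-4, cpr-3, cpr-1, and in replicate 3 it was cpr-4, cpr-9, cpr-3, cpr-1. SDs were close to or above the mean ranks at cpr-4, cpr-9, cpr-3 and cpr-1. Among neighbours in the pooled order of these genes, cpr-4 and cpr-3 changed places between replicates, as did cpr-1 and cpr-9. cpr-3 ranked better than cpr-1 in all 3 replicates, and no test was made on that order.

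TGATAAG was common near the members. It lay within 50 bp of the summit at 4 of the 5 IDR peaks, the exception being cpr-9, where it was within the peak but farther away. Over all IDR peaks it was within 50 bp of 260 of 682 (38.1%), and in points 500 bp to either side of the IDR summits it was near 1.54%. Of the 18 further pooled peaks in the members' windows 3 had it, where 4.15% of the pooled peaks outside the IDR list did. In the 300 bp upstream of the 5' end it stood at 5 of 8 members (cpr-1, cpr-3, cpr-4, cpr-8 and cpr-9) and at 9.25% of protein-coding genes. More than 1 copy was present at cpr-1, cpr-3 and cpr-4, where 0.971% of genes had 2 or more. The shorter TGATAA stood at 7 of 8 members and 30.7% of genes, with cpr-5 the exception. Any GATA word lay within 50 bp of 4 of the 5 member IDR summits, against 71.3% of all IDR summits and 21.6% of the flanking points. TGTTTAC was near none of the 5 and near 1.61% of all IDR summits. These matches are a description of letters and not of bound sites.

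Of 19 other cysteine cathepsin genes in the annotation 1 had an IDR summit (5.26%), and of 17 aspartyl protease genes 1 had (5.88%), shares near the 3.45% of all protein-coding genes. R07E3.1 was the cathepsin gene, with the summit 936 bp downstream of its 5' end and ranks of 970, 554 and 2091 in the replicates. asp-1, an intestinal aspartyl protease gene, had its summit 801 bp upstream, at 154, 1043 and 10650. Neither had TGATAAG within 50 bp of the summit. Neither cpi-1 nor cpi-2, which encode cystatins, inhibitors of cysteine proteases, had a summit in the pooled list. Median best ranks in the pooled list were 5009 for the 14 cathepsin genes and 5201 for the 17 aspartyl protease genes with a peak, against 9435 over all protein-coding genes with one.

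Genes with replicate ranks most like those of the members were found by the sum of the absolute differences in log10 rank over the 3 replicates. For cpr-4, the 3 nearest were T21D12.7 (sum 0.428, ranks 45, 164 and 19), Y75B8A.28 (0.535) and sem-5, an SH2/SH3 adaptor gene (0.593). For cpr-3 they were trpl-5 (0.412, ranks 55, 652 and 280), clec-170, a C-type lectin gene (0.467), and C52E2.2 (0.476), whose summit was also in the windows of C52E2.3 and fbxb-96. For cpr-9 they were nipi-3, a Tribbles-like pseudokinase gene (0.272, ranks 529, 67 and 232), and C56A3.6 and cav-2, a caveolin gene, which share 1 peak (0.483). The likeness is over 3 replicates and 512 or 513 candidate genes.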

How the data were processed

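PQM-1 ChIP-seq peak lists of 3 biological replicates in 1 group were analysed, numbered as in the labels. Per the README deposited with each sample, every replicate's list came from its own alignments and the pooled list from the alignments of all 3, each together with 1 further file that also enters the control-normalized tracks. The IDR list came from those 4 lists. The caller, the aligner and the threshold were not given in the sources used here, by name or version. The deposited signal of a peak (column 7) served to order peaks inside its own list, since its range differs between lists. Lists on ce10 were left out. Read depth is unknown. The labels call the replicates biological and say no more, so SDs measure the spread between these samples.

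Positions are on ce11, 1-based. Genes were taken from Ensembl release 115 and sequence from the RefSeq WBcel235 assembly, which is ce11. No ce11 peak ran past its reference chromosome. All 8 genes matched RefSeq coordinates. Annotated 5' ends of worm genes are often trans-splice sites, so distances refer to the annotation.

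A replicate peak matched an IDR peak where it covered at least 50% of it, and the best-ranked match was used. The members, lists and rules were chosen with earlier results of these data known. Named genes were the 8 members, other genes whose window held a member's IDR summit, listed proteases with an IDR summit, and, for members in all 3 top lists, the 3 genes of most similar ranks. C25B8.8, Y32B12B.8 and W07B8.4 fall outside this rule and were named after their values were seen. F57F5.1 and W07B8.1 in the cathepsin list are cpr-9 and cpr-8 and were left out of it, and asp-10 and asp-11 had no entry in the annotation. The window, matching and word functions were tested on simulated data. Alternatives were other window sizes, placements, top-list lengths, matching rules, word windows and leaving out each replicate. The planned comparison of protein sequences was not run. Versions were numpy 2.4.6, pandas 2.3.3 and matplotlib 3.10.9 under Python 3.11.15.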

Additional observations from a re-analysis of the deposited data

How the results depend on the processing

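No paired analysis was possible because the samples form a lone group with nothing to pair. The count of members with an IDR peak, 5 as reported, was 4 to 5 under every other window, placement and signal setting. cpr-9 was lost with 500 bp upstream or with the nearest 5' end alone, where 2.36% and 2.61% of all genes had an IDR peak. cpr-6 was lost with the upstream part alone or with the 341 highest-signal peaks, where 2.42% and 1.69% had one. The share of all genes was 3.45% as reported, and 2.81% to 4.10% in the other settings that kept all 5 members. With only IDR peaks in the top lists of the remaining replicates the member count was 3 to 4. It was 3 without replicate 1, 4 without replicate 2 and 3 without replicate 3, and 0.666%, 0.706% and 1.37% of all genes had such a peak. Members in all 3 top lists numbered 3, and 1 (cpr-4) with top lists of 341 peaks, where 0.290% of genes had such a peak. Leaving out replicate 1, 2 or 3 gave 3, 4 and 3 members in the remaining top lists. Of all genes, 0.816%, 0.831% and 1.62% were in them, against 0.566% in all 3 lists. Other listed proteases with an IDR peak numbered 2, and 1 with 500 bp upstream, with the upstream part alone or with the 341 highest-signal peaks. With only IDR peaks in the top lists of the remaining replicates, their number was 0 whichever replicate was left out. The peaks of R07E3.1 and asp-1 were each in only 1 top list, so that 0 was fixed in advance. Member IDR peaks with TGATAAG within 50 bp numbered 4 of 5, and 2 of 3, 3 of 4 and 2 of 3 without replicates 1, 2 and 3. Within 25 bp they numbered 3 of 5 and within the whole peak 5 of 5. Of all 682 IDR peaks, 38.1% had the word within 50 bp, 21.7% within 25 bp and 53.4% within the whole peak. Without 1 replicate the mean rank ran from 41 to 132.5 at cpr-4, 137 to 352 at cpr-3, 231.5 to 1110 at cpr-1, 123 to 411.5 at cpr-9 and 4069 to 8985 at cpr-6. Matching by summits within 100 bp left replicate 2 without a match at cpr-6, with a mean of 8985, and moved no other member. Fewer peaks in a setting lower these counts by construction. The unknown depth limits what the absence of cpr-2, cpr-5 and cpr-8 from the IDR list can show.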
